A study of Mus musculus with 6 samples.

Results

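The tumour necrosis factor (TNF) family was examined in abdominal adipose tissue of mice after a duodenal-jejunal bypass or a sham operation. Its members were taken by name: every non-control probe named Tnf, Lta or Ltb, or carrying a Tnfsf (ligand), Tnfrsf (receptor) or Traf (adaptor) number. This gave 49 probes for 40 genes, namely 13 ligands, 20 receptors and 7 TRAF adaptors. Each gene was represented by 1 of these probes, the one with the highest mean signal among them. Of the 40 members, 37 were bright enough to be tested, among 18326 tested genes in all.

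All mice were of the strain C57BL/6 and had eaten a high-fat diet for 12 weeks, from 6 weeks of age, before they were randomised to surgery. The bypass group, DJB, was given a biliopancreatic limb of 5 cm and a Roux limb of 4 cm. In the Sham group the abdomen was opened and the intestine was cut and sewn back in place without rerouting. Each group had 3 arrays (n = 3), named Sham-1 to Sham-3 and DJB-1 to DJB-3. The labels give no sex, fat depot or time after surgery, nor whether each array is an animal of its own. The p-values therefore reflect the spread among these 6 samples, which may be technical.

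TNF family ligands are mostly made as membrane proteins, some of which are cut from the cell surface, and they act as trimers on receptors that cluster when bound. Receptors with a death domain can start a caspase cascade, and most receptors recruit TRAF adaptors, which build ubiquitin chains or scaffolds and lead to NF-kappaB and MAP kinases. In fat, Tnf is known as a macrophage cytokine that impairs insulin signalling in adipocytes. Other members govern B cell survival, lymphoid organ structure, T cell costimulation and bone turnover.

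Signal was the log2 of each probe's processed intensity minus the array's 75th percentile, and every difference given is DJB minus Sham on that log2 scale, with its standard error (SE). Adjusted p-values come from limma's moderated test adjusted by Benjamini-Hochberg across the 99448 probes tested, and a gene was called where its adjusted p was under 0.05. Probes differ in how brightly they report, so the signal of 1 gene is not set against that of another. The 75th percentile of intensity was 175.8 to 183.7 in Sham and 132.0 to 165.3 in DJB. Adipoq, the adipocyte hormone adiponectin, lay between 8.59 and 9.03 on the Sham and between 6.96 and 8.30 on the DJB arrays. Its difference was -1.12 and was not called (adjusted p = 0.108). The summed signal of 9 adipocyte markers was 11.43 to 11.65 in Sham and 10.5 to 11.32 in DJB. Of these 9, 8 had negative differences (median -1.12) and 1, Fabp4, was at 0.08. Only Retn was called, as lower. Having 3 arrays per group limited the precision: an exact permutation test of a single gene cannot give a two-sided p below 0.1.

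The promoters of 5 members are shown because they carry the contrasts described here: 3 neighbouring genes whose DJB arrays sat differently against Sham (Tnf, Lta and Ltb), and 2 of the called genes (Tnfrsf17 and Tnfsf10). Each runs 5′ to 3′ on the gene's strand from 250 bases before the transcription start to 50 after it, from RefSeq on GRCm38.p6. Capitals mark TATAAA on the gene's strand, the NF-kappaB consensus on either strand or a spaced GAAA repeat on either strand, which is GAAA, any 2 bases and GAAA again, as in the core of interferon response elements.
Tnf, chr17:35201958-35202257, minus strand: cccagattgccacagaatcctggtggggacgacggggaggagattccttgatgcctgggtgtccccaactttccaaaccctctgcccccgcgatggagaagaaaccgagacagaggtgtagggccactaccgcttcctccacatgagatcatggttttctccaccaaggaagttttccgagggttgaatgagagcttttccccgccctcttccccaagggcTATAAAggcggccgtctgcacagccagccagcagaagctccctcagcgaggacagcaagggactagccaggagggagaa
Lta, chr17:35205302-35205601, minus strand: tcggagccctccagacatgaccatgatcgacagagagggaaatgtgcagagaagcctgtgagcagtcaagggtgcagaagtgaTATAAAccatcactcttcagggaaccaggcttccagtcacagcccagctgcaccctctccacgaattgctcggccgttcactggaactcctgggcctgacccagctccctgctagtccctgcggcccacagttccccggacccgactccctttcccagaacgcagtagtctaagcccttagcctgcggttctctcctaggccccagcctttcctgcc
Ltb, chr17:35194257-35194556, plus strand: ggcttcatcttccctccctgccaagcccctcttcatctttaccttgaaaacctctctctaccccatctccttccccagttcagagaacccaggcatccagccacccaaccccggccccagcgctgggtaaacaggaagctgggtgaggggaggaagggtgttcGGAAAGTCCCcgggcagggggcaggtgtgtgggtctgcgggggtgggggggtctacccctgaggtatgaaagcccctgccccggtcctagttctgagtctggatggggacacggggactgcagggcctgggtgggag
Tnfrsf17, chr16:11313559-11313858, plus strand: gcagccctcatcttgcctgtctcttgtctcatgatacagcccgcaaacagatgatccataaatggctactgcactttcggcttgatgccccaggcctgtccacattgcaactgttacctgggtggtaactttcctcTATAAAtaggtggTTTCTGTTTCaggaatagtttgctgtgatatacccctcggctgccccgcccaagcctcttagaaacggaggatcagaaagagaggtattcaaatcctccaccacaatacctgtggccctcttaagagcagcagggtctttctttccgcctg
Tnfsf10, chr3:27316827-27317126, plus strand: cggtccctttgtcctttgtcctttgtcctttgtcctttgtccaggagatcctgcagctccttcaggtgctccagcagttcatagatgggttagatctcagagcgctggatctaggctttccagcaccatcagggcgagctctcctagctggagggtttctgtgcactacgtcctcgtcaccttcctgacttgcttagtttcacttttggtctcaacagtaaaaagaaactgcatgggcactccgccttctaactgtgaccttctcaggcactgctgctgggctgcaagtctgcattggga
TATAAA began at -29 from the start of Tnf, at -167 in Lta and at -114 in Tnfrsf17. Ltb had the NF-kappaB consensus on the opposite strand, beginning at -87. In Tnfrsf17 the spaced GAAA repeat lay on the opposite strand at -101, and the Tnfsf10 window held none of these letters. None of the marked stretches overlapped another. Of 32851 mouse promoter windows of this length, 8.3% held TATAAA on the gene's strand, 8.5% the NF-kappaB consensus and 3.4% the spaced GAAA repeat. Among the 37 windows found for 33 members, 4, 5 and 4 held them in the same order. A match is a description of the letters and not a binding site.

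In adipose tissue after DJB, 3 family genes were lower and no member was called higher. The genes that fell were Tnfrsf19, Tnfrsf17 and Tnfsf10. These 3 of 37 are 8.11% of the tested members, against 6.98% of all tested genes called in either direction and 5.00% called lower (1.99% were called higher), so the share called was near the background. By limma's unadjusted p under 0.05, 10 members were higher (27.0%, against 16.5% of all genes) and 9 lower (24.3%, against 18.2%). The 3 DJB arrays lay wholly above the Sham arrays for 10 members (27.0%, against 23.8% of all genes) and wholly below them for 7 (18.9%, against 19.6%). Together these were 45.9% of members, against 43.4% of all genes.

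The median member difference was -0.01, against 0.04 over all tested genes, with 18 values above 0 and 19 below, from -2.89 to 1.74. By role the median was -0.11 for the 10 tested ligands, -0.13 for the 20 receptors and 0.06 for the 7 TRAFs. The split between higher and lower calls moved with the processing. It was 5 higher and 4 lower with normexp background correction, 2 and 2 with quantile normalization or the authors' deposited values, and 1 and 1 with median scaling. The higher calls were those of Tnfrsf21, Tnfrsf22, Tnfrsf23, Tnfrsf26 and Traf6 with normexp, of Tnfrsf22 and Tnfrsf23 with the next 2 settings and of Tnfrsf23 with median scaling. Calls over all tested genes moved as well. They were 364 higher and 916 lower in the main fit, 1146 and 1671 with normexp and 389 and 619 with median scaling. Quantile normalization gave 351 and 886, and the authors' values gave 346 and 890.

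**Figure D1:**
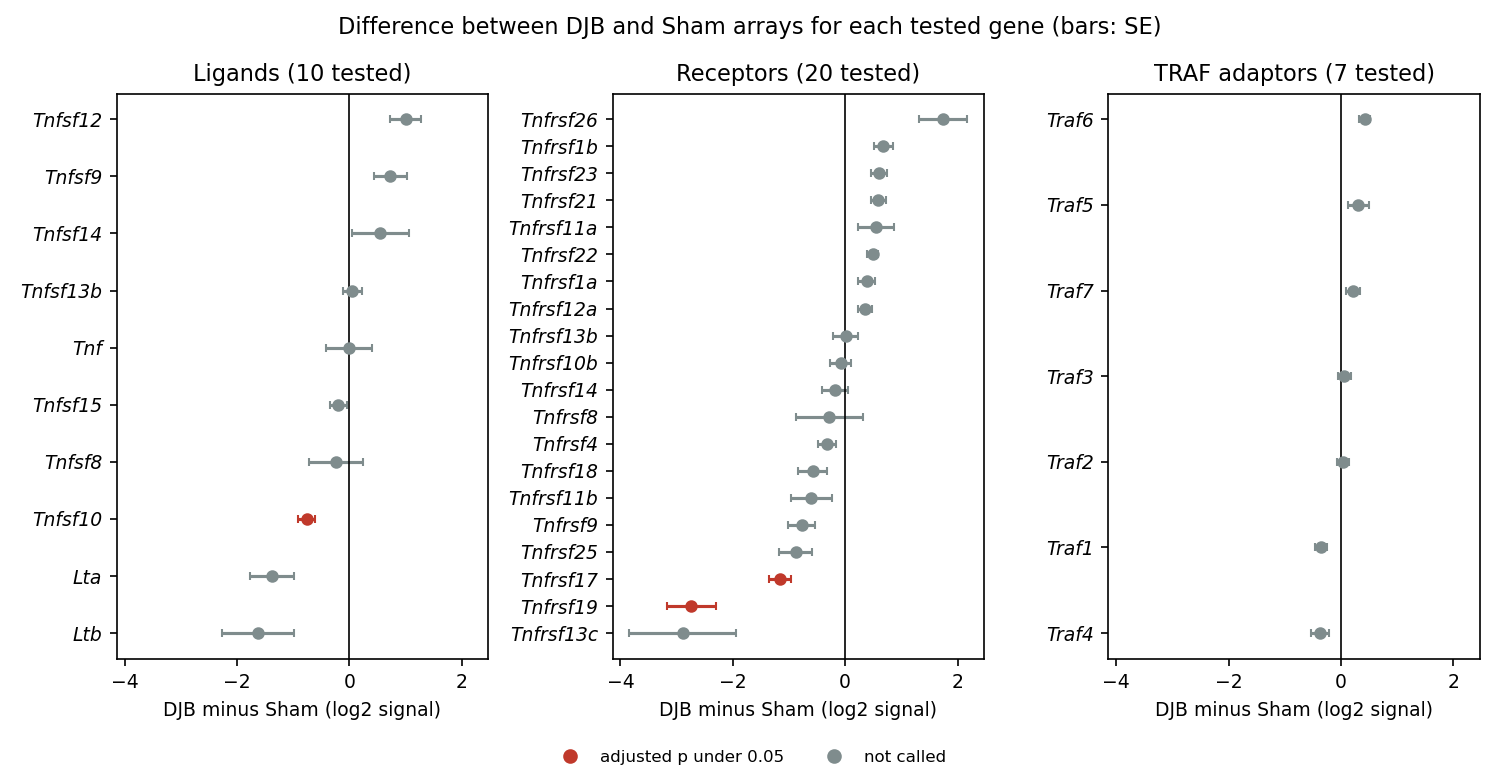
Difference between the DJB and Sham arrays (DJB minus Sham, log2 signal; bars are SE, n = 3 arrays a group) for the 37 tested members, with ligands, receptors and TRAF adaptors in panels of their own. Red marks an adjusted p under 0.05: 1 ligand and 2 receptors, all to the left of 0, while the adaptors lie between -0.37 and 0.42.

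Tnf, the ligand that names the family, had a signal of -1.04, 0.36 and 0.36 in Sham and 0.21, -0.34 and -0.23 in DJB. The groups overlapped fully, since Sham-1 was the lowest of the 6 arrays and the other Sham arrays the highest. The difference was -0.01 (SE 0.41, adjusted p = 0.988). A second probe for Tnf, which shared no more than 5 bases in a row with the first, gave -0.16 (SE 0.43, adjusted p = 0.835). On slide 1 the difference was 0.28 and on slide 2 it was -0.59, so its sign was not stable.

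The lymphotoxin genes lie next to Tnf on chromosome 17 with no other coding gene between them, in the order Ltb, Tnf, Lta. Ltb encodes the membrane anchor of the lymphotoxin heterotrimer and read 1.83, 2.12 and 0.83 in Sham and -1.27, 0.05 and 1.11 in DJB. DJB-1 and DJB-2 were below every Sham array and DJB-3 was above Sham-3, so the groups overlapped. The difference was -1.63 (SE 0.64, adjusted p = 0.162). Lta, the soluble lymphotoxin subunit, read -2.18, -1.69 and -2.94 in Sham and -4.25, -3.37 and -3.34 in DJB. All DJB arrays of Lta were below all Sham arrays, but the difference of -1.38 was not called (SE 0.39, adjusted p = 0.0863), and with normexp it was -0.30. Their receptor, Ltbr, gave 0.27 (SE 0.12, adjusted p = 0.211).

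Tnfsf10 encodes TRAIL, a ligand that can start apoptosis through a death-domain receptor. Its signal was -0.38, -0.70 and -0.66 in Sham and -1.18, -1.55 and -1.29 in DJB, and every DJB array was below every Sham array. It fell by 0.76 (SE 0.15, adjusted p = 0.0482), which is 1.69-fold, and by 0.43 with normexp background correction (adjusted p = 0.0206). A custom probe sharing at most 4 bases in a row with the first also called it lower (-0.84, SE 0.11, adjusted p = 0.0281). The difference was -0.84 on slide 1 and -0.59 on slide 2, and with the slide as a block the adjusted p was 0.0798. The call of the first probe was also lost with quantile normalization and the authors' deposited values (adjusted p = 0.0519 each). With median scaling the adjusted p was 0.0678.

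No TRAIL receptor was called by the probe that stood for it. Tnfrsf10b, the death receptor for TRAIL in the mouse, differed by -0.08 (SE 0.19, adjusted p = 0.817), and its other 2 probes gave -0.04 and -0.22. Tnfrsf22 and Tnfrsf23, mouse decoy receptors for TRAIL, lie beside Tnfrsf26 on chromosome 7 with no other coding gene between. Tnfrsf22 read -0.78, -0.71 and -0.68 in Sham and -0.28, -0.15 and -0.28 in DJB (0.49, SE 0.10, adjusted p = 0.0529). Tnfrsf23 read -2.18, -2.15 and -2.37 in Sham and -1.79, -1.45 and -1.66 in DJB (0.60, SE 0.14, adjusted p = 0.0594). Tnfrsf22 and Tnfrsf23 were called higher in 5 and 6 of the 17 alternative fits with a test. Among them were quantile normalization (adjusted p = 0.0495 and 0.0442) and the authors' deposited values (0.0497 and 0.0444). Neither gene was called with the slide as a block (0.0839 and 0.092) or in any fit that left out an array. All 3 genes of this cluster had every DJB array above every Sham array, as did 23.8% of all tested genes. Tnfrsf26, a related receptor, had the highest positive difference of the tested members. It read -0.80, -0.03 and -0.81 in Sham and 0.36, 1.90 and 1.31 in DJB, a difference of 1.74 that missed the threshold (SE 0.43, adjusted p = 0.0678), with 1.94 on slide 1 and 1.34 on slide 2. Its custom probe gave 1.76 (SE 0.43, adjusted p = 0.0676). The custom probe of Tnfrsf22 was called higher (0.59, SE 0.12, adjusted p = 0.049), but not with the slide as a block (0.0782). The chosen probes of different members shared at most 13 of their 60 bases in a row. Whether a probe also matches the transcript of a neighbour in this cluster was not tested.

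Tnfrsf17 encodes BCMA, the receptor that sustains plasma cells. It read -0.85, -0.49 and -0.71 in Sham and -1.75, -2.21 and -1.57 in DJB, with no overlap. It fell by 1.16 (SE 0.20, adjusted p = 0.0382), 2.24-fold, and by 0.61 with normexp (adjusted p = 0.0219). The custom probe, sharing at most 7 bases in a row, gave the same difference (-1.16, SE 0.16, adjusted p = 0.0281). The value was -1.20 on slide 1 and -1.08 on slide 2, and the call was lost with the slide as a block (adjusted p = 0.0548).

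Tnfrsf13c, which encodes the BAFF receptor of B cells, had the most negative difference of all members and was not called. Its signal was -0.18, 0.63 and -1.81 in Sham and -4.86, -3.53 and -1.64 in DJB. DJB-3 was above Sham-3, and 1 DJB array was not well above background. The difference was -2.89 (SE 0.95, adjusted p = 0.116), or -1.16 with normexp, and a custom probe for the gene, which shares 38 bases in a row with the first, gave -2.79. Tnfrsf13b, which encodes TACI, the third receptor of this set, stayed between -3.66 and -2.82 on all 6 arrays (0.01, SE 0.22, adjusted p = 0.977). The ligand BAFF, Tnfsf13b, differed by 0.05 (SE 0.17, adjusted p = 0.863).

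Markers of B and plasma cells had negative differences in all 9 listed genes (median -1.96), and none was called. Their summed signal was 6.06, 6.60 and 4.89 in Sham and 2.14, 3.21 and 5.15 in DJB, so DJB-3 again lay above Sham-3. Ltb and Tnfrsf13c ranked the 6 arrays in the same order as this sum and the other 35 tested members did not. Lymph node stroma markers summed to 7.26, 7.21 and 5.64 in Sham and 4.73, 4.98 and 6.15 in DJB. All 6 had negative differences (median -0.56), from -0.02 for Madcam1 and -0.03 for Glycam1 to -2.78 for Cxcl13, and none was called. Ccl21a alone read 6.82, 6.84 and 4.66 in Sham and 3.78, 3.68 and 5.55 in DJB. In bulk tissue, fewer cells of a type and less RNA per cell cannot be told apart, and the part of these markers in the member differences was not tested.

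**Figure D2:**
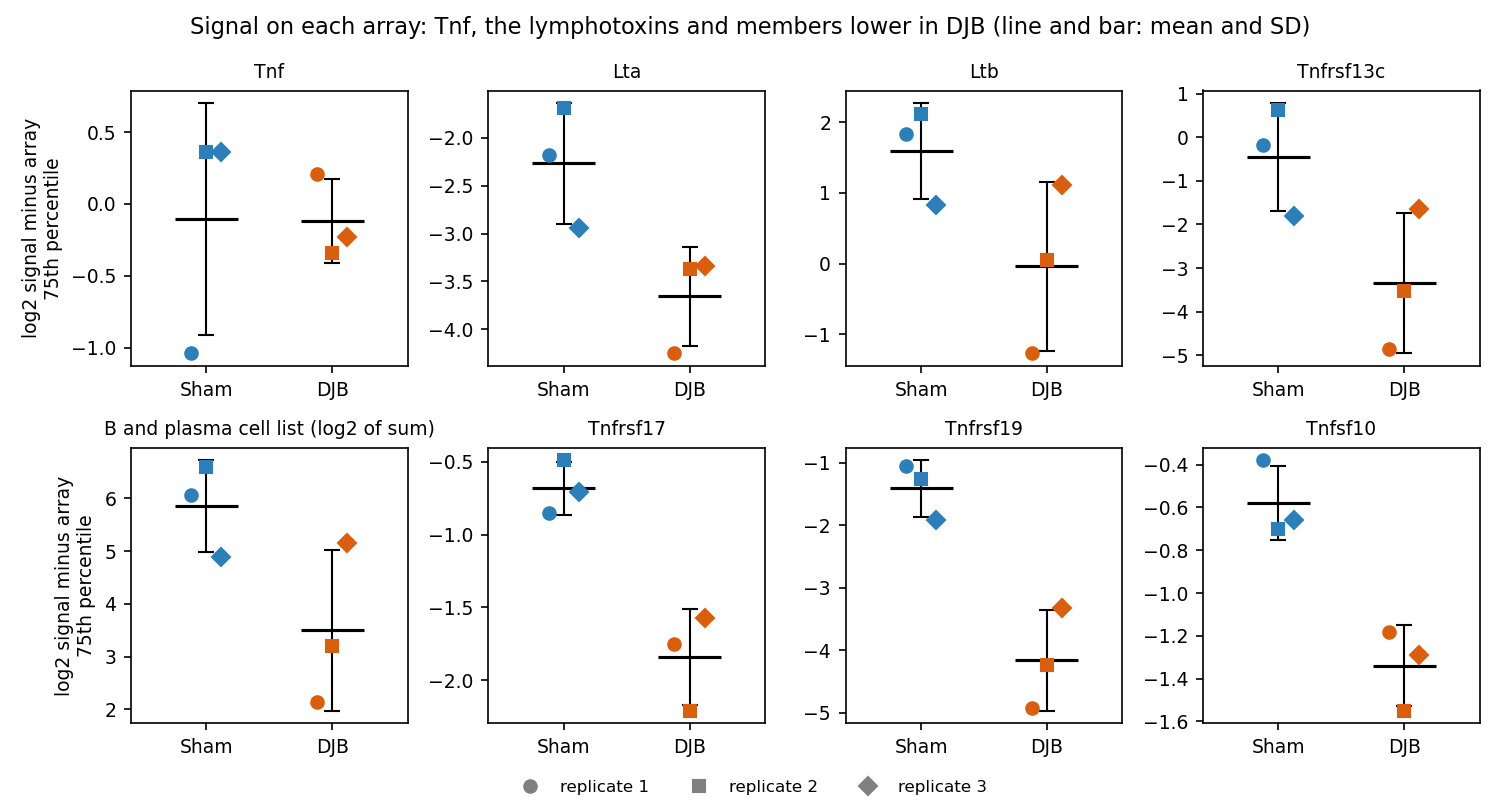
Signal on each array (log2 intensity minus the array's 75th percentile; line and bar are mean and SD, n = 3) for Tnf, the lymphotoxin genes, Tnfrsf13c and the 3 called members, with the summed signal of the B and plasma cell markers. The groups separate for Lta, Tnfrsf17, Tnfrsf19 and Tnfsf10, while in Ltb, Tnfrsf13c and the marker sum DJB-3 (diamond) lies above Sham-3.

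Tnfrsf19 encodes TROY, a receptor of embryonic and epithelial tissues. It had the largest fall among the called members, from -1.06, -1.26 and -1.92 in Sham to -4.93, -4.23 and -3.32 in DJB. The groups did not overlap, and with each of its probes 1 of the 3 DJB arrays was not well above background. The gene fell by 2.74 (SE 0.44, adjusted p = 0.0345), and by 3.01 with a custom probe of other sequence (SE 0.53, adjusted p = 0.0402). It differed by -3.09 on slide 1 and -2.06 on slide 2, with an adjusted p of 0.0531 in the fit with the slide as a block. With normexp background correction the difference was -0.73 (adjusted p = 0.0315), so its size depended on the background correction. Mesothelial markers, which sit on the surface of abdominal fat, summed to 5.81 to 6.42 in Sham and 3.52 to 5.2 in DJB. Skeletal muscle markers summed to 3.34 to 4.42 in Sham and 0.35 to 0.98 in DJB. Their part in the fall of Tnfrsf19 was not tested.

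The 2 TNF receptors leaned upward without a call. Tnfrsf1a, the widely expressed death-domain receptor, read 6.04, 6.09 and 6.14 in Sham and 6.20, 6.54 and 6.66 in DJB. DJB-1 was only just above Sham-3, and the difference was 0.38 (SE 0.15, adjusted p = 0.16). Tnfrsf1b, the TNF receptor of immune and endothelial cells, read 2.82, 3.20 and 3.40 in Sham and 3.87, 3.84 and 3.76 in DJB. The DJB arrays lay close together and above all Sham arrays (0.68, SE 0.17, adjusted p = 0.0684), and a second probe gave 0.43 (adjusted p = 0.0926). Tnfrsf21, which encodes death receptor DR6, was higher on all DJB arrays with 3 probes. The probe that stood for it differed by 0.59 (SE 0.13, adjusted p = 0.0557). A dimmer catalogue probe differed by 0.60 and a brighter custom probe by 0.54. Macrophage markers were higher in the same arrays. Of 11 listed, 5 rose (Cd68, Itgam, Lyz2, Gpnmb and Mmp12), where 1.99% of all genes were called higher, all 11 had positive differences, and their sum was 9.89 to 10.36 in Sham and 10.83 to 11.2 in DJB. With the slide as a block only Mmp12 of these stayed called (adjusted p = 0.0457, and 0.0562 to 0.0797 for the other 4). The part of these markers in the receptor differences was not tested.

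**Figure D3:**
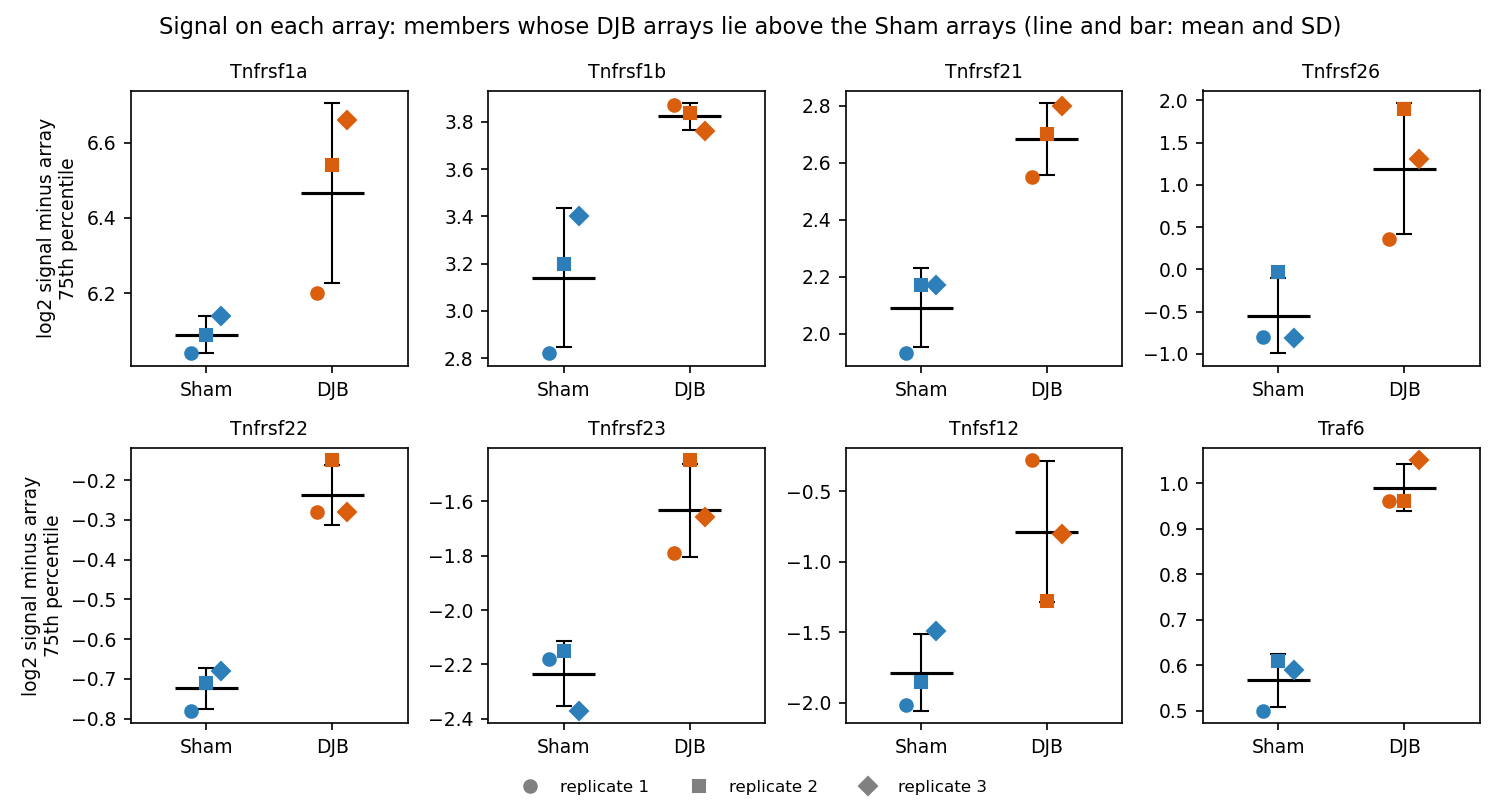
Signal on each array (log2 intensity minus the array's 75th percentile; line and bar are mean and SD, n = 3) for 8 members whose DJB arrays all lie above the Sham arrays. None was called; the adjusted p ran from 0.0529 for Tnfrsf22 to 0.16 for Tnfrsf1a.

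Neither gene of the TWEAK pair was called. Tnfsf12, which encodes TWEAK, read -2.02, -1.85 and -1.49 in Sham and -0.28, -1.28 and -0.80 in DJB. All DJB arrays were above all Sham arrays (1.0, SE 0.28, adjusted p = 0.0865), but the brighter custom probe gave 0.23 (SE 0.30, adjusted p = 0.657) with overlapping groups. Its receptor Tnfrsf12a, which encodes Fn14, differed by 0.35 (SE 0.13, adjusted p = 0.135).

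Tnfsf13 encodes APRIL, the other ligand of BCMA, and lies beside Tnfsf12 on chromosome 11. It had no catalogue probe under its symbol and so is no member, but its custom probe was called higher (0.92, SE 0.18, adjusted p = 0.0479). Tnfsfm13, a further gene annotated at this locus, was called higher by its catalogue probe (1.05, SE 0.16, adjusted p = 0.0322) but not by its custom probe (0.72, adjusted p = 0.0563). With the slide as a block neither call was kept (0.0801 and 0.0581). These 3 genes may share transcript sequence, so their signals cannot be assigned with certainty.

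No gene of the RANK axis, known for osteoclast formation, was called. The catalogue probe of Tnfsf11, the ligand RANKL, was well above background on 0 of the 6 arrays, and its custom probe on 2 Sham arrays and 0 DJB arrays, so neither was tested. Its receptor Tnfrsf11a ran from 2.38 to 3.17 in Sham and 3.01 to 3.95 in DJB (0.55, SE 0.32, adjusted p = 0.308). The decoy Tnfrsf11b, osteoprotegerin, differed by -0.60 (SE 0.37, adjusted p = 0.33), with 0.54, 0.98 and 1.36 in Sham and 1.10, 0.14 and -0.13 in DJB. DJB-1 was thus above the mean of Sham, and DJB-2 and DJB-3 below every Sham array.

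Receptors known for T cell costimulation held no called gene. Tnfrsf25, the receptor for the ligand TL1A, read 2.73, 2.74 and 3.04 in Sham and 1.35, 2.03 and 2.49 in DJB (-0.88, SE 0.29, adjusted p = 0.121). Its groups did not overlap, but the difference was -1.19 on slide 1 and -0.25 on slide 2. Tnfrsf9, an activation-induced receptor of T cells, gave -0.77 (SE 0.24, adjusted p = 0.107), whereas its brighter custom probe gave -0.19 (adjusted p = 0.69). Tnfrsf18 (GITR) and Tnfrsf4 (OX40), neighbours on chromosome 4, differed by -0.58 (adjusted p = 0.21) and -0.33 (adjusted p = 0.242) with overlapping groups. Tnfrsf14 (HVEM) and the dim Tnfrsf8 (CD30) gave -0.18 (adjusted p = 0.659) and -0.28 (adjusted p = 0.791). The custom probe of Tnfrsf14, which shares 52 bases in a row with the first, gave 0.23. With normexp the values were 0.01 for Tnfrsf9, 0.00 for Tnfrsf14 and 0.17 for Tnfrsf8. Of 10 T and NK cell markers, 9 had negative differences (median -0.76) and none was called. Their summed signal was 3.32 to 4.14 in Sham and 2.72 to 3.39 in DJB, and its part in the receptor values was not tested.

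The ligands of these receptors were dim or overlapped. The catalogue probes of Tnfsf4 (the OX40 ligand) and Tnfsf18 (the GITR ligand) were well above background on 0 and 1 of the 6 arrays and were not tested. The custom probe of Tnfsf4 was well above background on 1 DJB array and was not tested either. That of Tnfsf18 was well above background on 2 Sham and 3 DJB arrays (0.72, SE 0.53, adjusted p = 0.416). Tnfsf9, the ligand of Tnfrsf9, read -4.15, -3.58 and -3.32 in Sham and -3.43, -2.86 and -2.56 in DJB (0.73, SE 0.30, adjusted p = 0.174). Sham-3 was above DJB-1, so its groups overlapped. Tnfsf8, the CD30 ligand, gave -0.23 (SE 0.48, adjusted p = 0.787). Tnfsf14, or LIGHT, ran from -1.72 to -1.23 in Sham and from -1.93 to 0.15 in DJB (0.55, SE 0.51, adjusted p = 0.517).

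Tnfsf15 encodes TL1A, and its probes disagreed in size. The catalogue probe gave -0.20 (SE 0.15, adjusted p = 0.413) with overlapping groups. The custom probe was called lower (adjusted p = 0.0499, or 0.0581 with the slide as a block) and was not well above background on any DJB array. Its Sham signal was at least 2.47-fold higher, with each DJB value raised to that array's lowest signal well above background where the probe read less.

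The TRAF adaptors showed the narrowest range of the 3 roles, from -0.37 to 0.42, and none was called. Traf1, the TRAF induced by NF-kappaB, read 2.49, 2.70 and 2.46 in Sham and 2.24, 2.18 and 2.15 in DJB. Each DJB array was below each Sham array, and the difference was -0.36 (SE 0.11, adjusted p = 0.112). With normexp Traf1 was called lower (-0.41, adjusted p = 0.0273). Traf2, the adaptor of the TNF receptors, stayed at 3.34, 3.36 and 3.40 in Sham and 3.51, 3.32 and 3.40 in DJB (0.04, SE 0.11, adjusted p = 0.819).

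Traf3, which restrains the alternative NF-kappaB pathway, read 3.58, 3.64 and 3.50 in Sham and 3.65, 3.70 and 3.55 in DJB (0.06, SE 0.11, adjusted p = 0.729). Traf5 read 2.90, 3.03 and 3.22 in Sham and 3.71, 3.09 and 3.27 in DJB (0.31, SE 0.19, adjusted p = 0.331). In both genes the groups overlapped. Traf6, the ubiquitin ligase of the Toll-like and interleukin-1 receptor pathways as well as of RANK, read 0.50, 0.61 and 0.59 in Sham and 0.96, 0.96 and 1.05 in DJB. The groups were well apart and the difference was 0.42 (SE 0.10, adjusted p = 0.0678), but the brighter custom probe gave -0.03 (SE 0.14, adjusted p = 0.899).

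Traf7, a more distant relative, read 2.11, 2.34 and 2.32 in Sham and 2.37, 2.49 and 2.55 in DJB (0.21, SE 0.12, adjusted p = 0.289), against -0.08 with the brighter custom probe. Traf4 read 2.44, 2.33 and 2.05 in Sham and 1.69, 2.08 and 1.94 in DJB (-0.37, SE 0.16, adjusted p = 0.196). Its DJB-2 array lay just above Sham-3. A dimmer second catalogue probe for Traf4 was called lower (-0.72, SE 0.13, adjusted p = 0.0412), but not with the slide as a block (0.0701).

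Most members could be read by a further probe on the same arrays, since 37 of the 40 also had a custom probe named by RefSeq accession. Both probes were tested for 32 members, and 28 of these pairs had the same sign. In 26 pairs the probes shared fewer than 20 bases in a row, and 23 of those had the same sign. The median distance between the probes' differences was 0.12. The pairs of opposite sign were those of Tnfrsf14, Traf2, Traf6 and Traf7. All 3 called members were also called lower by their custom probe. Of 33 tested custom probes, 1 was called higher and 4 lower, where 1.27% of all 16342 tested custom RefSeq probes were called higher and 6.54% lower (7.81% in either direction). Both probes read the same labelled RNA, so their agreement bears on the probe and not on the samples.

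**Figure D4:**
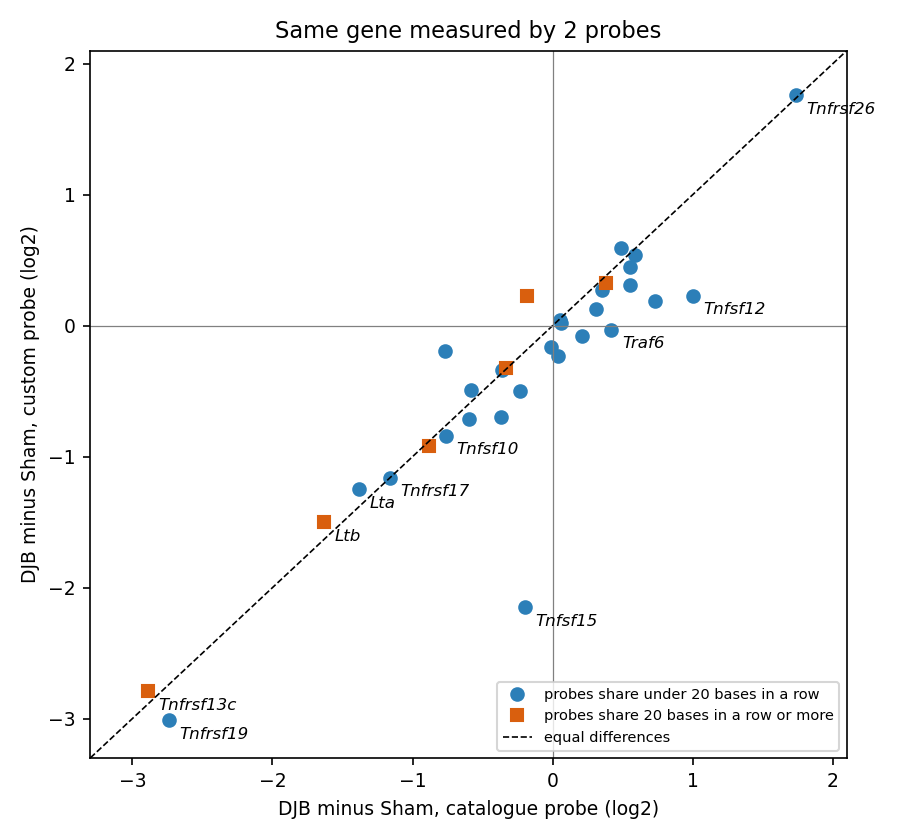
Difference between DJB and Sham (log2) by the catalogue probe (x axis) and the custom probe (y axis) of the same gene for the 32 members with both tested. Most points lie near the dashed line of equal differences; Tnfsf15 (-0.20 against -2.15) and Tnfsf12 (1.0 against 0.23) lie far below it.

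Family members with other names were described from a list of 12, of which 11 were tested. None rose and 2 fell, where 5.00% of all genes were called lower, and the median was -0.34. Eda, the ectodysplasin ligand of skin appendages, read -0.90, -1.14 and -0.96 in Sham and -2.39, -2.47 and -1.74 in DJB (-1.19, SE 0.21, adjusted p = 0.0412). Ngfr, the p75 neurotrophin receptor, read 0.07, -0.32 and -0.51 in Sham and -1.10, -1.40 and -1.62 in DJB (-1.12, SE 0.21, adjusted p = 0.0428). In both genes all DJB arrays were below all Sham arrays. The mean of the catalogue probes of Ngfr was not called (-0.55, adjusted p = 0.116). Fas, the death receptor for Fas ligand, lay below Sham on every DJB array (-0.90, SE 0.23, adjusted p = 0.0728). Cd40, the B cell and macrophage costimulatory receptor, gave -0.08 (adjusted p = 0.79).

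Downstream of the receptors, 30 adaptors, kinases, caspases and ubiquitin enzymes were tested. Of these 2 rose and none fell, where 1.99% of all genes were called higher. In all 25 differences were positive, as were 9799 of the 18326 over all genes, and the median was 0.15 against 0.04. Ripk3, the kinase of necroptosis, read 3.15, 3.43 and 3.38 in Sham and 4.18, 4.17 and 3.93 in DJB (0.77, SE 0.13, adjusted p = 0.0391). Tbk1, the TANK-binding kinase, read 2.50, 2.75 and 2.82 in Sham and 3.28, 3.33 and 3.40 in DJB (0.64, SE 0.13, adjusted p = 0.0463). Both were wholly higher in DJB. Ripk1, the receptor-proximal partner of Ripk3, gave 0.51 (adjusted p = 0.0605), and Mlkl, the necroptosis executor, gave 0.61 (adjusted p = 0.108). Birc3, a TRAF-bound ubiquitin ligase, gave 0.02 (adjusted p = 0.943), and Tnfaip3, the A20 inhibitor, gave 0.29 (adjusted p = 0.38). Ripk1 and Mlkl were added to the named genes after their values were seen.

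**Figure D5:**
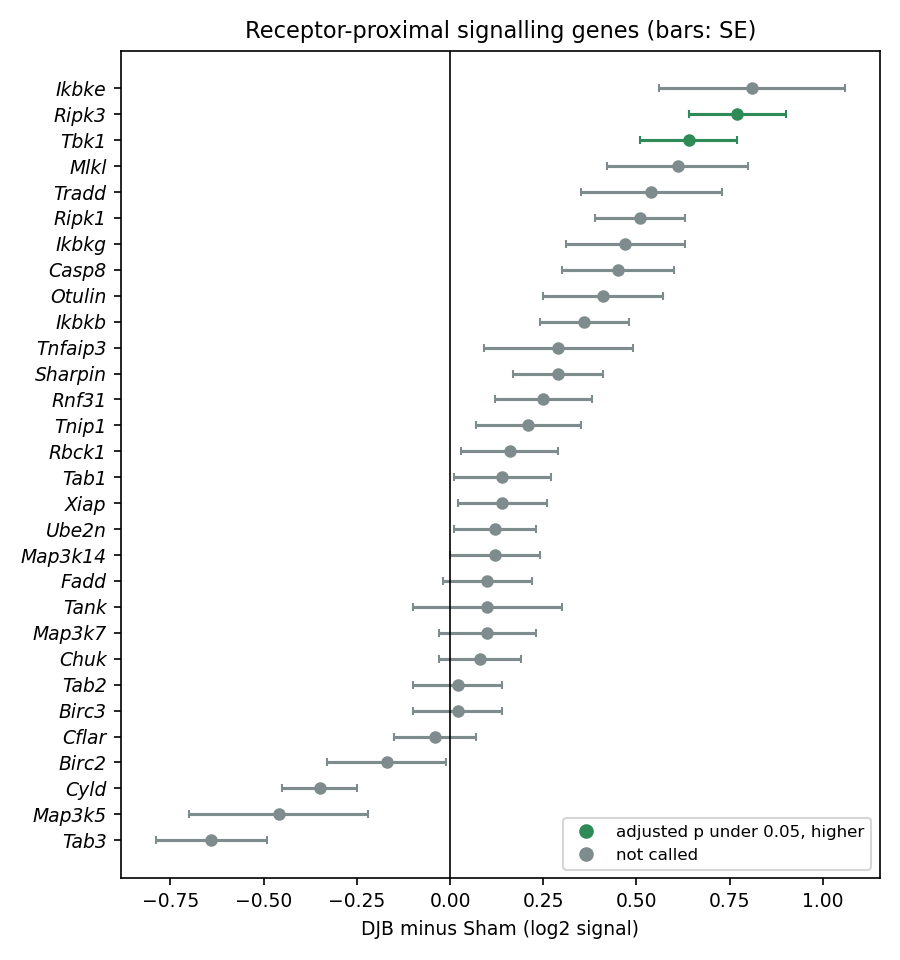
Difference between DJB and Sham (DJB minus Sham, log2 signal; bars are SE, n = 3 arrays a group) for 30 receptor-proximal signalling genes. Ripk3 and Tbk1 (green) were called higher, and 25 of the 30 values lie to the right of 0.

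No NF-kappaB subunit or inhibitor was called in limma's test, although 8 of 10 differences were positive (median 0.23). Nfkbia, the inhibitor induced by NF-kappaB itself, gave 0.53 (SE 0.17, adjusted p = 0.118), Nfkb1 0.17 (adjusted p = 0.53) and Nfkb2 0.22 (adjusted p = 0.261). Of 21 tested genes known to be induced by TNF, 1 rose and none fell (1.99% of all genes were called higher), with 12 positive and 9 negative values (median 0.14). Ccl2, the monocyte chemokine, read 5.64, 5.86 and 5.84 in Sham and 6.41, 6.65 and 6.31 in DJB (0.68, SE 0.14, adjusted p = 0.0488), with no overlap. Il6 gave 1.55 with a wide error (SE 1.02, adjusted p = 0.363), since DJB-2 read 1.95 and the other DJB arrays -2.12 and -1.09.

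Among 6 genes that cut or process the ligands, 1 rose and none fell (median 0.33), against the same 1.99% of all genes. Adam10, a sheddase read by a custom probe, was higher on every DJB array (0.59, SE 0.11, adjusted p = 0.0465). Adam17, the enzyme that releases soluble TNF, gave 0.41 (SE 0.18, adjusted p = 0.2). With the slide as a block the calls of Eda, Ngfr, Ripk3, Tbk1, Ccl2 and Adam10 were all lost, with adjusted p from 0.0667 to 0.0798. Of the 6 fits that left out an array, Ngfr, Tbk1, Ccl2 and Adam10 were called in 0, and Eda and Ripk3 in 1, the fit without DJB-3. Ccl2 was also not called with quantile normalization (adjusted p = 0.0572) or the authors' deposited values (0.0573).

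The member calls depended on which arrays were included. Leaving out Sham-1, Sham-2, DJB-1 or DJB-2 left no member called. Without Sham-3 only Tnfrsf19 stayed called (-3.0, adjusted p = 0.0408), and without DJB-3 Tnfrsf19 (-3.16, adjusted p = 0.0267) and Tnfrsf17 (-1.30, adjusted p = 0.0422) did. In these 6 fits all 3 genes stayed lower, Tnfrsf19 between -3.16 and -2.36, Tnfrsf17 between -1.30 and -0.98 and Tnfsf10 between -0.84 and -0.66. The adjusted p of Tnfsf10 ran from 0.0723 to 0.158 across them.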

How the data were processed

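RNA of 3 Sham and 3 DJB samples was amplified and labelled with cyanine 3, per the labels' protocols, for 1-colour Agilent arrays with 150305 non-control probes. Per the file headers, the deposited processed intensity was made with Feature Extraction 12.0.3.1, and the genome build field reads mm9. A table of log2 values deposited by the authors served as an alternative; its exact normalization is not given in the sources used here. The submitters' processing notes name limma, with no version or role.

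Processed intensities were put on the log2 scale, and each array was centred on its 75th percentile over non-control probes. Spots flagged as outliers (18 to 25 on an array) were dropped, and none was saturated. Testing was limited to probes well above background on 3 or more arrays. DJB was compared with Sham by limma 3.58.1 in R 4.3.3 (lmFit and eBayes, two-sided, no covariates, n = 3 per group). Benjamini-Hochberg adjustment ran over all tested probes, and the threshold was 0.05. The fit was tested on simulated data. Other steps used Python 3.11.15, pandas 2.3.3, numpy 2.4.6 and matplotlib 3.10.9.

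Catalogue probes carry a gene symbol. Custom probes carry a RefSeq accession and were named through the GRCm38.p6 RefSeq table, which was also used for which genes neighbour each other. A gene was represented by its brightest tested catalogue probe, or by a custom probe where it had none. Promoter windows were those of RefSeq. Summed marker signals are the log2 of summed linear values.

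The members and gene lists were chosen with earlier results of these data known. Values were given array by array for called members, for the 3 highest and 3 lowest uncalled differences, for Tnf, Lta, Ltb, both TNF receptors and the TRAFs, and for some others. Slide 1 held Sham-1, Sham-3, DJB-1 and DJB-2, and slide 2 held Sham-2 and DJB-3. The slide was tried as a block and each slide by itself. The replicate numbers were tried as a block too. Samples with the same number did not deviate together (correlations of -0.18, -0.12 and -0.29). With 3 arrays a group this cannot show whether the numbers pair them, and the main fit used no pairing. Other alternatives changed background correction, scaling, the filter on dim probes, the prior, the probe that stands for a gene and the arrays included.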

Additional observations from a re-analysis of the deposited data

How the results depend on the processing

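The count of members called lower, 3, was 1 with median scaling and 0 with no filter on dim probes, with the slide as a block, within slide 1 and with the replicate block. Leaving out 1 array gave 0 to 2. It was 4 with normexp, 3 with a trended robust prior or the mean of catalogue probes, and 2 with quantile normalization, the authors' values or a filter on all 6 arrays. The count called higher, 0, was 5 with normexp or the trended robust prior, 4 with the filter on all 6 arrays, 2 with quantile normalization or the authors' values, and 1 with median scaling or the mean of probes. It was 0 in every fit that left out an array. Over all tested genes, 364 were called higher and 916 lower in the main fit. These counts were 1146 and 1671 with normexp, and 1269 and 1579 with the trended robust prior. They were 673 and 1171 with the filter on all 6 arrays, 10 and 158 with no filter, and 21 and 188 with the slide as a block. In 2 alternatives chosen after seeing the data, custom probes included or custom probes alone, 1 member was called higher in each, and 3 and 4 lower. Taking probes of any identifier changed no member's probe and was not run for the lists. With the replicate block limma called no gene at all, and the adjusted p was 0.14 for Tnfrsf17, 0.135 for Tnfrsf19 and 0.131 for Tnfsf10. The median over all genes was 0.04, and 0.14 with median scaling. No called difference changed sign in an alternative. By the custom probe, Tnfrsf14 went from -0.18 to 0.23, Traf2 from 0.04 to -0.23, Traf6 from 0.42 to -0.03 and Traf7 from 0.21 to -0.08. None of these was called by either probe. In the other alternatives, the differences that changed sign were not called and ran from -0.77 (Tnfrsf9) to 0.06 (Traf3). Traf3 did so only within slide 2, where each group had 1 array (-0.08). In that setting Tnfrsf8 was 0.76, Tnfrsf14 0.07, Tnfrsf10b 0.11, Tnfrsf13b -0.46 and Birc3 -0.09. Tnf was 0.09 with median scaling, 0.28 within slide 1 and -0.48 to 0.22 with 1 array left out. Median scaling also gave 0.03 for Tnfrsf10b and 0.02 for Cd40. Normexp gave 0.00 for Tnfrsf14, 0.17 for Tnfrsf8, 0.01 for Tnfrsf9, -0.04 for Tnfsf13b, 0.16 for Tnfsf15, 0.10 for Tnfsf8, -0.01 for Traf2 and -0.04 for Birc3. Within slide 1 Tnfsf13b was -0.01. Quantile normalization gave -0.01 and the authors' values -0.02 for Birc3. With 1 array left out the range was -0.19 to 0.11 for Tnfrsf10b, -0.20 to 0.23 for Tnfrsf13b, -0.73 to 0.36 for Tnfrsf8, -0.08 to 0.21 for Tnfsf13b, -0.70 to 0.12 for Tnfsf8, -0.01 to 0.09 for Traf2, -0.23 to 0.03 for Cd40 and -0.06 to 0.06 for Birc3. The cause of these shifts was not tested. Dim probes, such as those of Tnfrsf8, Tnfsf8, Tnfsf15 and Tnfsf9, limit how small a difference could be read.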
